A study of Mus musculus with 4 samples.

Results

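Immunoglobulin heavy chain V segments, the Ighv genes, were described in splenocytes, the mixed cells of a whole spleen, by RNA sequencing. The members are the rows of the deposited expression table whose gene symbol starts with Ighv, 83 of 14226 rows, and no measured level entered that choice. Of these, 82 are annotated as V genes and 1, Ighv1-83, as a V pseudogene. They belong to 14 V families, and Ighv10-1 has a pair of rows. The tested libraries, 2 in number, came from transgenic mice designated vcS5, with the genotype given as vcS5 +/T. The other 2 libraries came from wild-type mice. Both groups were of the strain C57BL/6N, and neither age nor treatment is stated. The series title names an activating STAT5 mutation and peripheral T cell lymphoma, and the comparison addresses how the spleen transcriptome differs in mice that carry the transgene. Which promoter drives the transgene is not stated in the labels.

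In mice the heavy chain locus lies on chromosome 12. During B cell development the RAG recombinase joins 1 V segment to D and J segments, and the joined exon is transcribed with a constant region gene such as Ighm. Each B cell clone therefore expresses essentially 1 heavy chain V segment, and Ighv RNA in spleen sums over the naive B cells and over plasma cells, which hold far more immunoglobulin RNA per cell. In a bulk sample, fewer cells of a type and less RNA per cell cannot be told apart.

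The 83 rows span chr12:113578504-116000461 on mm10, and all the segments lie on the minus strand. They are similar to each other, which bears on every level below. Windows of 50 bases, the read length, were taken from the annotated transcript of each member. Windows shared only with segments merged into the same row were counted as unique to that row. With these, a median of 79.0% of windows occurred in no other of 183 annotated Ighv transcripts. That share was as low as 7.49%, was under 50% in 10 members and was over 90% in 21 members. In addition, several genes are merged in 8 rows, and 42 rows lie at a locus that also holds further rows. How reads that match several segments were assigned is not stated.

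The last 90 bases of 6 segments whose level fell are shown, since they encode the end of framework region 3, where V segments of different families can be compared by eye. They were read 5′ to 3′ from GENCODE vM21 transcripts, and the capitals mark the codon of the conserved cysteine that precedes the CDR3.
Ighv1-47: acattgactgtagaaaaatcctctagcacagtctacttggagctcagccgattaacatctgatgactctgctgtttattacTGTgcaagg
Ighv2-9: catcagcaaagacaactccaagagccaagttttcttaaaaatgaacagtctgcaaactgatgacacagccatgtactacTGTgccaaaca
Ighv5-15: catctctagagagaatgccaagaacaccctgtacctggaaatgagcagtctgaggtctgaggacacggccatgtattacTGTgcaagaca
Ighv6-3: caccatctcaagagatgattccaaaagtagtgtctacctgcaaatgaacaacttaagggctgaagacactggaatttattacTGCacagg
Ighv8-5: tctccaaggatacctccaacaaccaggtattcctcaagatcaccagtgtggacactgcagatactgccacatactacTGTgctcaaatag
Ighv11-2: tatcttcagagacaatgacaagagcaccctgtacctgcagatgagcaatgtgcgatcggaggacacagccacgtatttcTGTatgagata
Their positions on mm10 are chr12:114991108-114991197 for Ighv1-47, chr12:113879096-113879185 for Ighv2-9 and chr12:113826646-113826735 for Ighv5-15. Those of Ighv6-3, Ighv8-5 and Ighv11-2 are chr12:114391712-114391801, chr12:115067560-115067649 and chr12:114048241-114048330.

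The next 3 segments were deposited as 1 merged row named Ighv9-2, and are shown because their ends are nearly identical. Capitals mark bases that differ from Ighv9-2.
Ighv9-2: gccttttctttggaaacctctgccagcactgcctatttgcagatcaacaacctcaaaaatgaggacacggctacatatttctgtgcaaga
Ighv9-1: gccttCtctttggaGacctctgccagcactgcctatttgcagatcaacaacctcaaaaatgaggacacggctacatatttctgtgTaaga
Ighv9-3: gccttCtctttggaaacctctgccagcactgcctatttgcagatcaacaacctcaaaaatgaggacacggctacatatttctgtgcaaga
Over the aligned transcript ends, Ighv9-1 was 95.9% identical to Ighv9-2 across 294 bases and Ighv9-3 94.3% across 351 bases. These percentages cover unlike lengths. The most abundant row, Ighv1-53, is merged with Ighv1-42, and its other close relative below, Ighv1-74, carried the highest level of any V segment in one vcS5 library. Capitals mark bases that differ from Ighv1-53.
Ighv1-53: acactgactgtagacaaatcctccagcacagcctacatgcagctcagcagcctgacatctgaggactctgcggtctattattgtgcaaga
Ighv1-42: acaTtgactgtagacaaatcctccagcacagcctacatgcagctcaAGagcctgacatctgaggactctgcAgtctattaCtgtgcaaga
Ighv1-74: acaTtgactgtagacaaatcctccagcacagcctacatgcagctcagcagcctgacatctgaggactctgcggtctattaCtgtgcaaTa
Identity to Ighv1-53 over the aligned transcript ends was 88.1% across 294 bases for Ighv1-42 and 94.0% across 351 bases for Ighv1-74.

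Summed over the 83 rows, Ighv RNA was lower in both vcS5 libraries than in either wild-type library. Levels are FPKM, fragments scaled by transcript length and library size. The sum was 6687 and 4058 FPKM in vcS5 replicates 1 and 2, against 10336 and 7474 FPKM in wild-type replicates 1 and 2, or 5373 ± 1859 and 8905 ± 2024 (SD, n = 2 each). The wild-type mean was 1.66 times the vcS5 mean. An exact two-sided permutation test gave p = 0.333, the smallest value that 2 against 2 libraries can reach, so this test cannot pass 0.05 for any sum, share or ratio here. As a share of all FPKM in the library, the Ighv rows took 0.539% and 0.333% in vcS5, against 0.766% and 0.509% in wild type, and on that scale the groups overlapped (exact permutation p = 0.667). Leaving out each library in turn, the ratio of vcS5 to wild type lay between 0.456, without vcS5 replicate 1, and 0.751, without vcS5 replicate 2.

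Among the 17 B cell genes listed as markers, 16 fell. The 17 B cell markers summed to 2269 and 2186 FPKM in vcS5 libraries, against 5055 and 6000 FPKM in wild-type libraries, a wild-type mean 2.48 times that of vcS5. Their 2 vcS5 sums were close together, while those of Ighv were not. Ighv RNA relative to the B cell markers was 2.95 and 1.86 in vcS5, against 2.05 and 1.25 in wild type, and these groups overlap. With Ighv1-74, a segment that the symbol rule leaves out and that is described further on, this ratio was 2.99 and 2.12 in vcS5, against 2.06 and 1.25 in wild type, without overlap. The 14 plasma cell markers measured summed to 1017 and 803 FPKM in vcS5, against 1632 and 1208 FPKM in wild type. The part of B cell and plasma cell numbers in the Ighv level was not tested.

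The other parts of the antibody molecule were set beside the V segments. The 7 heavy chain constant genes measured summed to 8388 and 4941 FPKM in vcS5, against 9955 and 8082 FPKM in wild type, and overlapped. Ighd, the constant gene of IgD, has no row under its symbol, so these sums leave it out. Ighv RNA per heavy chain constant RNA was 0.797 and 0.821 in vcS5, against 1.04 and 0.925 in wild type, without overlap. The 91 rows of Igkv, the V segments of the kappa light chain, summed to 11379 and 7405 FPKM in vcS5, against 16405 and 11941 FPKM in wild type. Ighv RNA per Igkv RNA was 0.588 and 0.548 in vcS5, against 0.630 and 0.626 in wild type, again without overlap. In each group replicate 1 had the higher Ighv, Igkv and heavy chain constant sums. With Ighv1-74 added, Ighv RNA per heavy chain constant RNA was 0.809 and 0.936 in vcS5 against 1.04 and 0.931 in wild type, and overlapped.

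**Figure D1:**
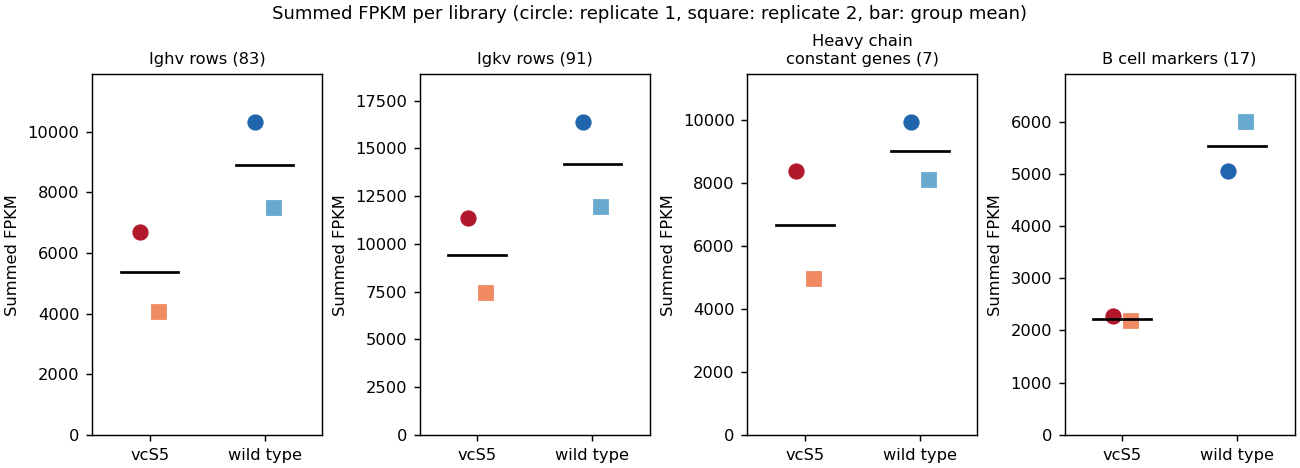
Summed FPKM per library (y axis, from 0) for Ighv rows, Igkv rows, heavy chain constant genes and B cell markers, with vcS5 left of wild type. Points are libraries and bars group means; both vcS5 libraries lie under both wild-type libraries in every panel but that of the constant genes, where 8388 FPKM in vcS5 exceeds 8082 FPKM in wild type.

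Among single rows, 8 of the 83 Ighv rows fell in vcS5 and 0 rose, by limma on log2(FPKM + 1) with Benjamini-Hochberg adjustment over all 14226 rows at 0.05. These 8 are 9.64% of the members, where 4.13% of all rows passed as lower and 4.59% as higher. At an unadjusted p under 0.05, limma gave 30 lower and 0 higher members, beside 13.1% and 12.1% of all rows. The authors' deposited table has 14 members lower and 0 higher at a q under 0.05, which are 16.9% and 0% of members beside 6.14% and 5.31% of all rows. The calls of limma and of that table share 2 rows, Ighv2-9 and Ighv6-3, which are 25% of limma's calls and 14.3% of the authors' calls. Both vcS5 libraries lay under both wild-type libraries in 46 members, 55.4%, beside 27.5% of all rows, and over both in 0 members, beside 26.9%. The median log2 change was -0.63 over the 83 rows, with quartiles at -1.13 and -0.25, beside 0.001 over all rows and -0.86 over Igkv. Mean levels were lower in vcS5 in 75 rows and higher in 8, and no exact 0 occurred.

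Ighv levels, like Igkv levels, spread more between libraries of the same group than the table as a whole did. The median absolute log2 difference between replicates was 0.579 in vcS5 and 0.507 in wild type for Ighv, beside 0.208 and 0.204 for all rows. For 4135 other rows of similar abundance it was 0.185 in both groups. For the Igkv rows it was 0.693 in vcS5 and 0.472 in wild type, so the spread is not particular to Ighv. Replicates were over 2-fold apart in 21 Ighv rows, 25.3%, in vcS5 and in 23 rows, 27.7%, in wild type, beside 6.92% and 6.71% of all rows. The level was higher in replicate 1 than in replicate 2 in 65 Ighv rows, 78.3%, in vcS5 and in 51, 61.4%, in wild type. Of all rows, 44.4% in vcS5 and 43.6% in wild type were higher in replicate 1.

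The 8 rows that fell come from 6 families and are mostly of modest level. Ighv2-6-8 was at 1.68 and 2.93 FPKM in vcS5 libraries, against 10.6 and 13.2 FPKM in wild type (log2 change -1.98, SE 0.244, limma adjusted p = 0.0152). Ighv11-2 was at 11.4 and 15.2 FPKM in vcS5, against 64.8 and 42.7 FPKM in wild type (log2 change -1.92, SE 0.253, limma adjusted p = 0.0173). Ighv1-47 was at 9.24 and 12.1 FPKM in vcS5, against 41.1 and 40.6 FPKM in wild type (log2 change -1.86, SE 0.168, limma adjusted p = 0.0079). In each of these the groups are separated by more than 2-fold. For Ighv1-47 and no other of the 8, all windows of 50 bases in the annotated transcript were unique among Ighv transcripts. Ighv11-2 had 61.4% unique windows and shared the rest with Ighv11-1.

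Ighv6-3 was the most abundant of the 8, at 103 and 103 FPKM in vcS5, against 298 and 209 FPKM in wild type (log2 change -1.27, SE 0.208, limma adjusted p = 0.029). Its vcS5 libraries coincided, and its wild-type libraries lay apart. Ighv2-9 was at 28.5 and 28.3 FPKM in vcS5, against 61.0 and 62.6 FPKM in wild type (log2 change -1.10, limma adjusted p = 0.0131). Both Ighv8 rows that fell, Ighv8-5 and Ighv8-13, were low. Ighv8-5 was at 9.54 and 7.94 FPKM in vcS5, against 34.8 and 19.8 FPKM in wild type (log2 change -1.49, limma adjusted p = 0.041). Ighv8-13 was at 12.4 and 11.1 FPKM in vcS5, against 26.8 and 21.8 FPKM in wild type (log2 change -0.98, limma adjusted p = 0.0291), and 44.5% of its windows were unique. Ighv5-15 was at 5.06 and 4.97 FPKM in vcS5, against 12.6 and 11.4 FPKM in wild type (log2 change -1.11, limma adjusted p = 0.017).

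Few of these calls held with a library left out, in fits where a group keeps a single library. Calls over the whole table dropped as well, so the loss is not particular to Ighv rows. When wild-type replicate 2 was dropped, Ighv11-2 and Ighv8-5 kept their calls, and 4 other Ighv rows passed as lower, Ighv3-5, Ighv1-20, Ighv1-34 and Ighv1-63. In the other 3 fits 0 of the 8 passed. The single Ighv row that passed was Ighv1-80 when vcS5 replicate 1 was dropped and Ighv1-56 when wild-type replicate 1 was dropped, and 0 passed when vcS5 replicate 2 was dropped. The direction stayed lower for all 8 in each of these fits, with adjusted p between 0.0397 and 0.197 by limma.

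Low ratios also occurred in 3 rows that did not pass limma's test and whose wild-type libraries disagreed. The authors' deposited q was under 0.05 for all 3, at 0.00335 for Ighv3-5 and 0.000995 for Ighv1-20 and Ighv1-18. Ighv3-5 had 4.50 and 3.29 FPKM in vcS5, against 84.2 and 12.1 FPKM in wild type, and its mean was 12.4-fold lower in vcS5 (limma adjusted p = 0.123). Ighv1-20 had 63.0 and 67.5 FPKM in vcS5, against 424 and 148 FPKM in wild type (limma adjusted p = 0.0798). Ighv1-18 had 80.9 and 44.9 FPKM in vcS5, against 420 and 115 FPKM in wild type (limma adjusted p = 0.158). In all 3 the groups did not overlap, and wild-type replicate 1 stood far above wild-type replicate 2. All windows of Ighv3-5 were unique, while Ighv1-18 shared most with Ighv1-26. Without wild-type replicate 2, the log2 change of Ighv3-5 was -4.13 and that of Ighv1-20 was -2.68, and both passed limma's test with adjusted p of 0.0119 and 0.021. Without wild-type replicate 1 they were -1.43 and -1.17, with limma adjusted p of 0.0893 and 0.0786, so neither passed. For Ighv1-18 the log2 change was -2.78 without wild-type replicate 2 and -0.93 without wild-type replicate 1, and it passed in neither fit. No row of at least 20 FPKM was higher in vcS5 without overlap.

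The 12 most abundant rows all had lower means in vcS5, and none passed the test. Ighv1-53, merged with Ighv1-42, was at 478 and 113 FPKM in vcS5, against 583 and 568 FPKM in wild type (limma adjusted p = 0.3). Its vcS5 replicate 2 stood apart and the other 3 libraries lay close together. The same held for Ighv1-80, at 282 and 67.2 FPKM in vcS5, against 378 and 342 FPKM in wild type (limma adjusted p = 0.272). Ighv9-2, merged with Ighv9-1 and Ighv9-3, was at 421 and 183 FPKM in vcS5, against 783 and 328 FPKM in wild type (limma adjusted p = 0.413). Its groups overlapped, as did those of Ighv1-9, merged with Ighv1-4 and Ighv1-7, at 357 and 211 FPKM in vcS5, against 312 and 318 FPKM in wild type. Ighv3-6 overlapped too, at 342 and 147 FPKM in vcS5, against 322 and 279 FPKM in wild type.

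Nearest to the threshold among the abundant rows was Ighv8-8, at 129 and 78.2 FPKM in vcS5, against 315 and 227 FPKM in wild type (log2 change -1.40, SE 0.3, limma adjusted p = 0.0545). Ighv1-26 was at 268 and 201 FPKM in vcS5, against 427 and 390 FPKM in wild type (limma adjusted p = 0.0752). Ighv5-6, merged with Ighv5-17, was at 152 and 136 FPKM in vcS5, against 282 and 215 FPKM in wild type (limma adjusted p = 0.075). In these 3 rows both vcS5 libraries lay under both wild-type libraries. Ighv1-81, Ighv1-82 and Ighv1-39 did not overlap either, with log2 changes of -0.53, -0.59 and -0.50. Ighv1-55 overlapped, at 230 and 141 FPKM in vcS5, against 291 and 144 FPKM in wild type.

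**Figure D2:**
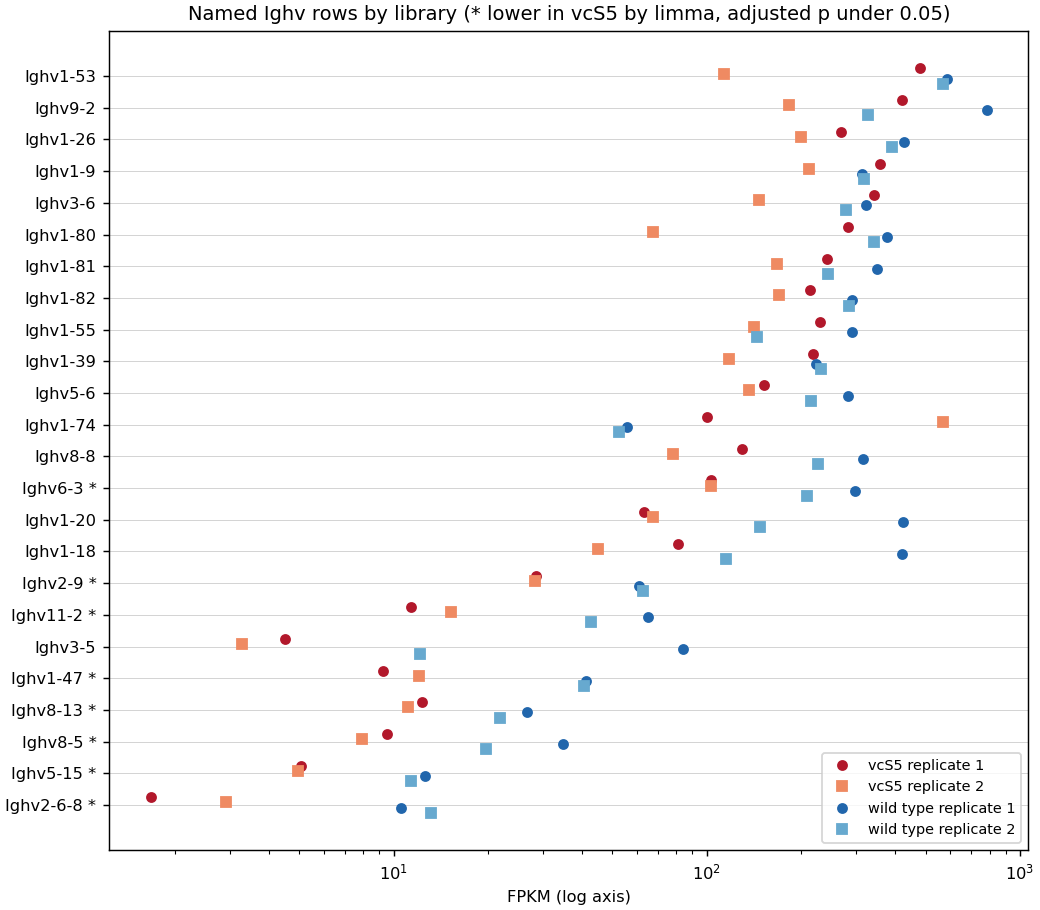
FPKM (log axis) of the named Ighv rows and of Ighv1-74 in each library, ordered by mean level, with vcS5 in red and orange and wild type in blue. The 8 rows with an asterisk passed the test as lower in vcS5, and the square of Ighv1-74 at 567 FPKM is vcS5 replicate 2.

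The 8 rows with a higher mean on the log2 scale in vcS5 were Ighv2-4, Ighv14-2, Ighv14-4, Ighv7-4, Ighv1-5, Ighv1-15, Ighv1-58 and Ighv8-11. They are listed because they are few, after their values were seen. Their log2 changes reached 0.67, in Ighv7-4, and none passed the test. Ighv7-4 was at 35.8 and 7.28 FPKM in vcS5, against 5.91 and 16.3 FPKM in wild type, so each group held both a high and a low library.

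The 3 V families with the highest mean shares overlapped between the groups. Ighv1, the largest family of the mouse locus, took 58.6% and 55.3% in vcS5, against 54.9% and 58.1% in wild type, with 41 of the 83 rows. Ighv5 took 7.27% and 9.06% in vcS5, against 8.75% and 6.13% in wild type. Ighv9 took 6.88% and 4.79% in vcS5, against 8.10% and 4.78% in wild type. In these 3 families the groups overlapped. Depth in reads is unknown from FPKM, so no counting interval is given for a share.

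In 8 of the 14 families the shares of the groups did not overlap, each at the smallest p that the exact permutation test allows, 0.333, or 0.583 adjusted over the 14 families. Lack of overlap was common over the whole table, where 27.5% of all rows were lower in vcS5 without overlap and 26.9% higher, in FPKM. The count of families is therefore a description. The share was lower in vcS5 in 5 of these 8 families. Ighv11, here the single row Ighv11-2, took 0.171% and 0.375% in vcS5, against 0.627% and 0.571% in wild type. Ighv4, the single row Ighv4-1, took 0.613% and 1.48% in vcS5, against 2.31% and 1.60% in wild type. Ighv12, the single row Ighv12-3, took 0.131% and 0.180% in vcS5, against 0.226% and 0.199% in wild type. Ighv8 took 4.44% and 5.13% in vcS5, against 5.32% and 6.55% in wild type, and Ighv10 took 1.97% and 2.09% in vcS5, against 3.06% and 2.24% in wild type. Without merged rows and shared loci, Ighv8-11 was the only Ighv8 row left. It was at 1.87 and 1.22 FPKM in vcS5, against 0.558 and 1.80 FPKM in wild type. In that run its share was 0.029 percentage points higher in vcS5, which describes a single low row and not the family. The margins between the nearest libraries were narrow in Ighv4, Ighv8, Ighv10 and Ighv12.

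The share was higher in vcS5 in Ighv2, Ighv3 and Ighv14. Ighv14 took 3.86% and 4.41% in vcS5, against 1.92% and 3.80% in wild type. Ighv3 took 6.39% and 5.42% in vcS5, against 5.21% and 4.90% in wild type. Ighv2 took 4.89% and 4.64% in vcS5, against 4.18% and 4.52% in wild type. These are shares of a smaller sum, and the mean summed level was lower in vcS5 in all 14 families. The ratio of vcS5 to wild type in that level was 0.248 for Ighv11 and 0.281 for Ighv4 at the low end, and 0.906 for Ighv14 and 0.938 for Ighv15 at the high end. With Ighv1-74 in the sum, Ighv2 and Ighv3 overlapped and Ighv1 did not, at 59.2% and 60.8% in vcS5 against 55.1% and 58.4% in wild type.

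**Figure D3:**
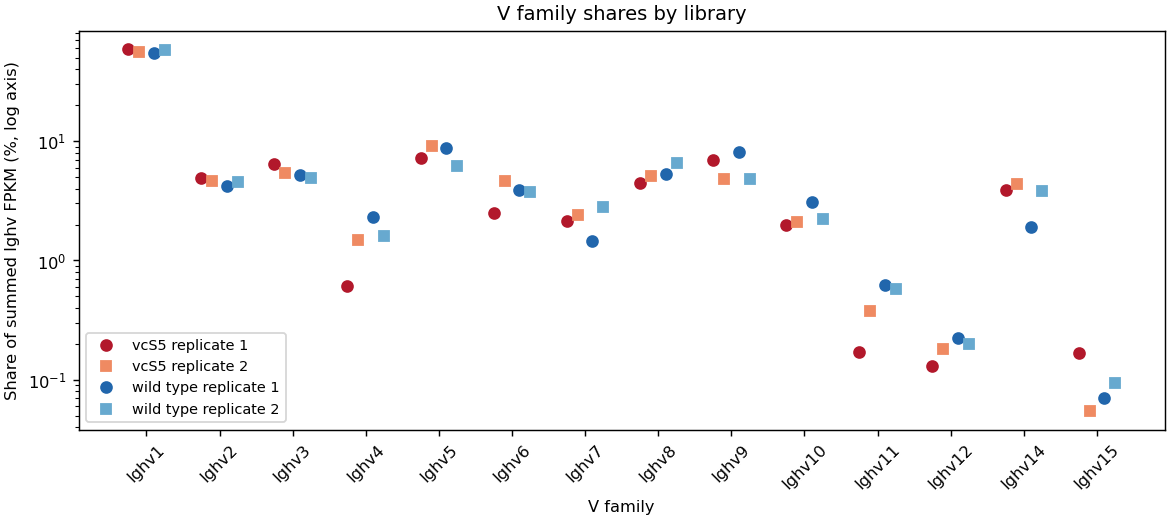
Share of the summed Ighv FPKM (%, log axis) taken by each of the 14 V families in each library, with vcS5 libraries left of wild-type libraries. Ighv1 lies between 54.9% and 58.6% in all 4 libraries, and the vcS5 points of Ighv11 and Ighv4 lie under the wild-type ones.

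Ighv11-2 and Ighv12-3 are known in mice as V segments of B-1 cells that bind phosphatidylcholine, and both are single-row families with lower shares in vcS5. Ighv12-3, named for this role after its values were seen, was at 8.76 and 7.31 FPKM in vcS5, against 23.3 and 14.9 FPKM in wild type (log2 change -1.13, SE 0.243, limma adjusted p = 0.0553). It did not pass the test. A pair of other segments with a known antigen was looked up in the same way. Ighv7-1 is the segment of phosphorylcholine-binding antibodies in mice. It was at 13.8 and 24.3 FPKM in vcS5, against 31.9 and 77.1 FPKM in wild type (log2 change -1.39, limma adjusted p = 0.152). It did not pass limma's test, while the authors' deposited q was 0.000995. Ighv1-72, the leading segment of the response to the hapten nitrophenyl in C57BL/6 mice, was at 11.3 and 8.27 FPKM in vcS5, against 11.4 and 15.1 FPKM in wild type, and did not pass either. Both had vcS5 libraries under both wild-type libraries, and those of Ighv1-72 nearly touched. Ighv1-72 had the lowest share of unique windows of all members, 7.49%, and shared 68.3% of its windows with Ighv1-62-3.

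Among 12 genes that mark B-1 or marginal zone B cells, 6 fell and 0 rose, with a median log2 change of -0.90. The median of the B cell markers was -1.38. The list does not separate B-1 from marginal zone cells. S1pr3, a sphingosine receptor of marginal zone B cells, was at 2.41 and 1.94 FPKM in vcS5, against 11.7 and 10.3 FPKM in wild type (limma adjusted p = 0.0078). Cr2, complement receptor 2, was at 71.8 and 71.9 FPKM in vcS5, against 223 and 228 FPKM in wild type (limma adjusted p = 0.00615). Myof and Cd9 fell as well, by log2 changes of -1.66 and -1.15, and so did Cd1d1 and Ccr9. Dtx1, Plscr1, Bhlhe41, Tppp3 and Zbtb32 had log2 changes of -0.59, -0.89, -0.81, -0.74 and -0.45 and did not pass. Cr2 is also among the B cell markers, and Cd5, which B-1 cells and T cells share, did not pass the test at 54.9 and 63.0 FPKM in vcS5 against 34.0 and 44.1 FPKM in wild type.

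Rows that fell lay in both parts of the locus. The 42 rows next to the D segments, up to chr12:114683065, had a median log2 change of -0.70 with 5 rows that fell, and the 41 rows farther away had -0.63 with 3. Rows lower in vcS5 without overlap numbered 19 in the D-proximal part and 27 in the distal part. The D-proximal rows took 47.7% and 50.1% of the sum in vcS5, against 49.5% and 43.8% in wild type, and the groups overlapped.

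**Figure D4:**
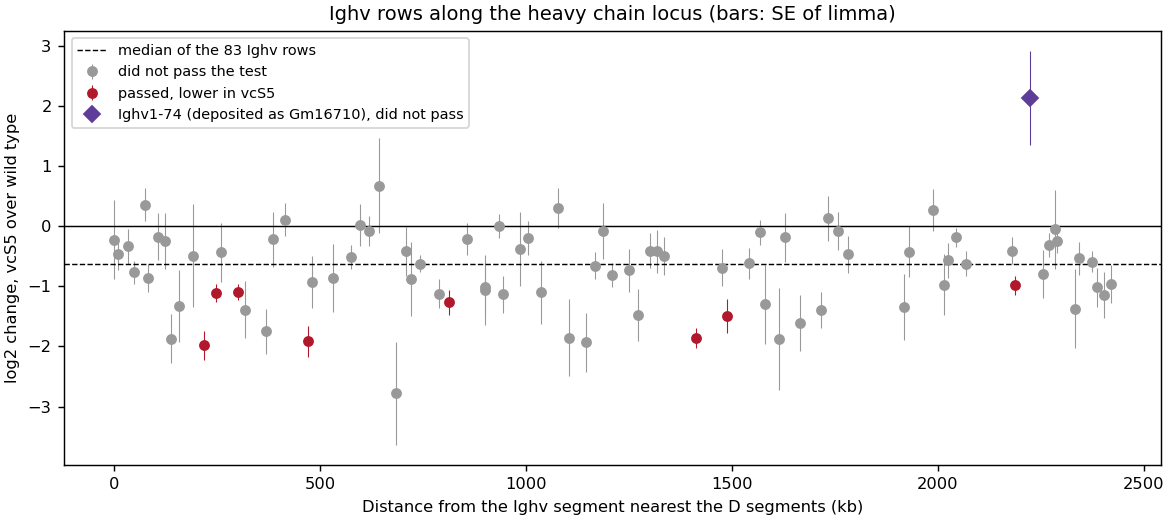
The log2 change of each Ighv row, vcS5 over wild type (y axis, bars are limma SE), against its distance in kb from the Ighv segment nearest the D segments. Red points are the 8 rows that fell, the dashed line is the median of -0.63, and the diamond is Ighv1-74 at 2.13, which did not pass the test.

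Evenness of V usage over the 83 rows overlapped between the groups, except in the share of the leading row. The effective number of segments, the exponential of the Shannon entropy of their shares, was 46.0 and 50.9 in vcS5, against 48.0 and 49.4 in wild type. Pielou evenness, the entropy over its maximum, was 0.866 and 0.889 in vcS5, against 0.876 and 0.883 in wild type. The 10 most abundant rows took 45.6% and 39.1% in vcS5, against 41.7% and 43.0% in wild type. By these measures the vcS5 libraries held both the least even and the most even library. The leading row was Ighv1-53 with 7.15% in vcS5 replicate 1 and Ighv1-9 with 5.21% in vcS5 replicate 2. In wild type it was Ighv9-2 with 7.57% in replicate 1 and Ighv1-53 with 7.60% in replicate 2. The share of the leading row was thus lower in vcS5 without overlap (exact permutation p = 0.333).

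Distances in usage between the groups lay on both sides of those within them. The Bray-Curtis distance between shares, the part of the sum that would have to move to make a pair of libraries equal, was 18.0% between the vcS5 libraries and 19.0% between the wild-type libraries. Between a vcS5 and a wild-type library it lay between 15.4% and 23.9%. The 10 leading rows shared 9 members between the vcS5 libraries, 8 between the wild-type libraries, and 6 to 9 across the groups.

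One V segment lies outside the symbol rule. The table lists it under the symbol Gm16710, and its identifier is annotated as Ighv1-74 in GENCODE vM21, at chr12:115802648-115803080. It was at 100 and 567 FPKM in vcS5, against 55.5 and 52.4 FPKM in wild type. The log2 change was 2.13 with an SE of 0.785, and limma's adjusted p was 0.177, while the authors' deposited table gives a q of 0.000995. Both vcS5 libraries lay above both wild-type libraries, by a small margin in replicate 1 and a large one in replicate 2. In vcS5 replicate 2 it was the most abundant of all 84 V segment rows, with 12.3% of their sum, and in vcS5 replicate 1 it ranked 22 with 1.48%. In wild type it ranked 48 and 41, with 0.534% and 0.696%. Of its windows of 50 bases 63.6% were unique among Ighv transcripts, and it shared most with Ighv1-52.

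Evenness gave another picture once this 1 row was added. The effective number of segments over 84 rows was 46.9 and 45.6 in vcS5, against 48.6 and 50.1 in wild type, without overlap, where the 83 rows overlapped. The share of the 10 leading rows was 44.97% and 44.13% in vcS5, against 41.50% and 42.69% in wild type, also without overlap. The exact permutation p was 0.333 for both. The Ighv sum with this row was 6787 and 4625 FPKM in vcS5, against 10392 and 7526 FPKM in wild type.

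**Figure D5:**
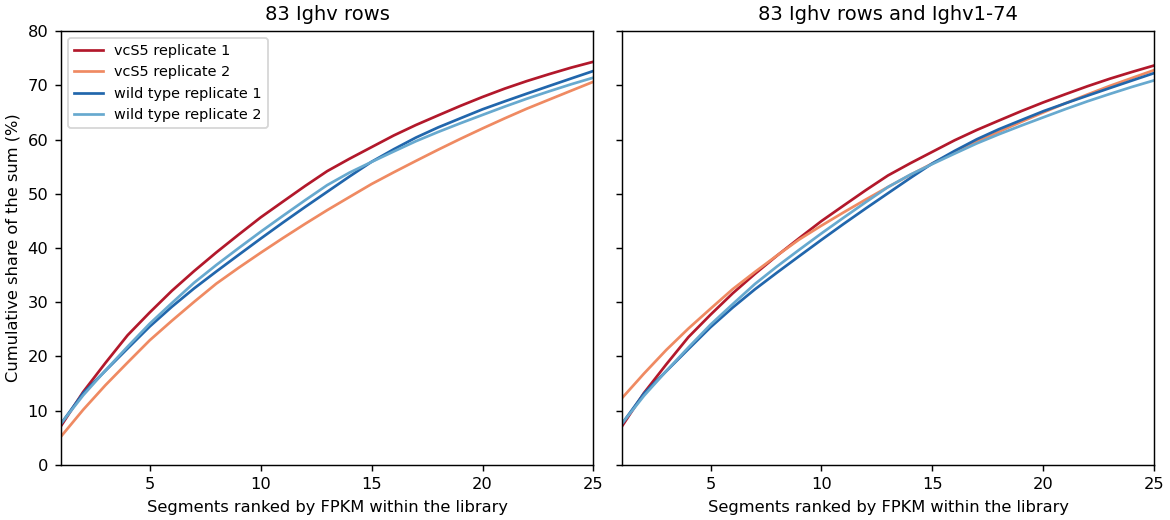
Cumulative share of the sum (%, y axis) over the 25 leading segments ranked within each library, for the 83 Ighv rows and for these with Ighv1-74. Over 83 rows the vcS5 libraries lie above and below both wild-type libraries at rank 10. Their shares there are 45.6% and 39.1%, against 41.7% and 43.0% in wild type. The leading row of the 83 takes a lower share in both vcS5 libraries. With Ighv1-74, vcS5 replicate 2 starts at 12.3% and both vcS5 curves are above wild type at rank 10.

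To separate usage from the total, the 83 rows were also scaled to the same Ighv sum in each library, with all other rows as deposited, a fit added after the data were seen. On that scale 40 rows were lower and 43 higher in vcS5, and 16 of the 83 had an unadjusted p under 0.05, beside 25.2% of all rows in that fit. By limma 3 of the 83 rows rose relative to the sum and 0 fell, where 4.61% of all 14226 rows in that fit passed as higher and 4.06% as lower, so the members' share is no larger than the background. Ighv1-15 took 2.88% and 2.62% of the sum in vcS5, against 1.34% and 1.31% in wild type (relative log2 change 1.05, limma adjusted p = 0.0179). Ighv1-58 took 0.978% and 0.774% in vcS5, against 0.480% and 0.463% in wild type (relative log2 change 0.86, limma adjusted p = 0.0398). Ighv1-59 took 0.931% and 0.859% in vcS5, against 0.561% and 0.568% in wild type (relative log2 change 0.65, limma adjusted p = 0.0471). All 3 are Ighv1 segments whose own FPKM overlapped between the groups. Leaving out any 1 library left 0 of these 3 calls. Of the 8 rows that fell in FPKM, none passed relative to the Ighv sum, where Ighv2-6-8 had a relative log2 change of -1.35 and Ighv11-2 of -1.19.

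Of 9 immunoglobulin constant genes measured, 2 fell and 0 rose, with a median log2 change of -0.50. Ighd, Iglc1, Iglc3 and Iglc4 have no row under their symbols. Ighg3, the constant gene of IgG3, was at 21.0 and 6.82 FPKM in vcS5, against 235 and 168 FPKM in wild type (log2 change -3.93, SE 0.504, limma adjusted p = 0.0168). Iglc2, a lambda constant gene, was at 296 and 280 FPKM in vcS5, against 798 and 944 FPKM in wild type (limma adjusted p = 0.0127). Ighm, the constant gene of IgM, overlapped, at 6062 and 2901 FPKM in vcS5 against 5716 and 5062 FPKM in wild type. Igha, that of IgA, was at 607 and 989 FPKM in vcS5, against 1881 and 1314 FPKM in wild type, and did not pass (limma adjusted p = 0.137). Neither did Igkc, Ighg1, Ighg2b, Ighg2c or Ighe, with log2 changes of -0.92, -0.41, -0.50, -0.42 and -0.17.

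Most genes of the B cell receptor complex and its signalling fell. Of 12 partners of the B cell receptor 11 fell and 0 rose, with a median log2 change of -1.31. Syk, the kinase that binds the receptor's signalling chains, was at 74.0 and 67.5 FPKM in vcS5, against 179 and 206 FPKM in wild type (limma adjusted p = 0.0112). Cd79a and Cd79b, those signalling chains, and Blnk, an adaptor, fell by log2 changes of -1.46, -1.38 and -1.41. The B cell markers that fell include Pax5, Cr2, Cd79a and Blk, and the list's median was -1.38. These lists share 5 genes. All 3 medians, the Ighv one included, are descriptions, and the Ighv median of -0.63 lies nearer to 0.

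Of 11 factors that bind the heavy chain enhancer or V promoters, 4 fell and 0 rose, with a median of -0.61. They were Pax5, Pou2af1, the octamer coactivator, Pou2f2, the octamer-binding factor Oct2, and Bcl11a. Pou2af1 was at 94.0 and 74.0 FPKM in vcS5, against 223 and 195 FPKM in wild type (limma adjusted p = 0.0195). Ikzf1, Yy1, Ets1 and Tcf3 had log2 changes of 0.002, 0.08, -0.11 and -0.24 and did not pass. Ebf1, Ikzf3 and Pou2f1 had log2 changes of -1.38, -0.61 and -0.27 and did not pass either. Of 9 measured genes of V(D)J recombination and the surrogate light chain, 1 fell, Vpreb3. It was at 30.5 and 26.7 FPKM in vcS5 against 56.8 and 68.7 FPKM in wild type (limma adjusted p = 0.0223). Rag1, Rag2, Vpreb1, Vpreb2 and Igll1 have no row under their symbols, so the RAG recombinase was not measured. Of 11 genes of class switching and hypermutation 0 passed as higher or lower, with a median of 0.06.

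Of 14 plasma cell markers 3 fell and 0 rose, with a median of -0.46. Those that fell, Irf4, Mzb1 and Tnfrsf13b, are also expressed in other B cells, and had log2 changes of -1.28, -1.17 and -1.12. Sdc1 and Prdm1, the plasma cell surface marker and regulator, had log2 changes of -0.37 and 0.21 and did not pass. Xbp1, Derl3, Fkbp11, Sec11c, Tnfrsf17 and Creld2 had log2 changes of -0.52, -0.61, -0.59, -0.29, -0.40 and -0.25. Edem1 and Slamf7 had log2 changes of 0.12 and 0.25, and none of these passed. Igj, the joining chain of IgM and IgA, was at 554 and 372 FPKM in vcS5, against 965 and 566 FPKM in wild type (limma adjusted p = 0.282). Of 16 T cell markers 10 rose and 1, Cd4, fell. Cd8a was at 391 and 445 FPKM in vcS5, against 51.1 and 62.9 FPKM in wild type (limma adjusted p = 0.0026), and Cd8b1 and Thy1 rose too, by log2 changes of 2.78 and 2.16. Summed T cell markers were 4163 and 6334 FPKM in vcS5, against 3349 and 1881 FPKM in wild type. Trac, a T cell receptor constant gene, spread widely in both groups, at 438 and 1629 FPKM in vcS5, against 2168 and 280 FPKM in wild type (limma adjusted p = 0.966). Without it the sums were 3724 and 4706 FPKM in vcS5, against 1180 and 1600 FPKM in wild type, a vcS5 mean 3.03 times that of wild type. Of 7 erythroid genes 0 passed, and their sums overlapped at 669 and 2063 FPKM in vcS5 against 1333 and 1895 FPKM in wild type. The part of the change in T and B cell RNA in the level of any V segment was not tested.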

How the data were processed

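RNA from frozen spleen cell suspensions went into TruSeq v2 libraries, which do not mark the strand, and was read as single-end reads of 50 bases, per the labels' protocols. The authors deposited 1 table, which per the file headers gives FPKM for each library beside the p-value and q-value of their own comparison. The submitters' processing notes name the build mm10, Cuffdiff 2.1.1, Cufflinks, TopHat2 2.0.9 and Bowtie2 2.1.0, without settings. Read depth is unknown from FPKM, and median FPKM was 12.2 and 12.6 in vcS5 and 12.2 and 12.5 in wild type.

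The test was limma 3.58.1 in R 4.3.3 with a variance trend on log2(FPKM + 1), 2 against 2 libraries, two-sided and adjusted over 14226 rows. Fold changes on this scale understate those of low rows. All rows have a mean FPKM of at least 1, so the filter at 1 removed none, and the list's entry Jchain was read under its older symbol Igj. Sums, shares and evenness were computed from FPKM and compared by exact permutation tests. The series design calls the samples biological replicates. Members, 10 gene lists with 132 entries and the naming rule were chosen with earlier results of these data known. The rule named the 12 most abundant rows, those past the test, the 3 most abundant per library, the lowest ratios among rows of at least 20 FPKM, all constant genes and up to 4 genes per list. Further genes given only by a log2 change were added after their values were seen. Sequences and V gene annotation are from GENCODE vM21, with 78 members matched by identifier and 5 by symbol. Scripts were tested on simulated data. Some genes that the rule names are left out of the text.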

Additional observations from a re-analysis of the deposited data

Results flagged for a closer look

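Ighv1-74, deposited under the symbol Gm16710 and so outside the 83 Ighv rows, drew attention because its signal in vcS5 lies above the level in wild type. It reached 566.8 FPKM in vcS5 replicate 2 and 100 FPKM in vcS5 replicate 1, against 55.5 and 52.4 FPKM in wild type. The high value rests on 1 library.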

How the results depend on the processing

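Without 1 library, limma calls dropped in the whole table as well as among Ighv rows. The count of 8 Ighv rows lower in vcS5 was 5 with libraries scaled to the FPKM outside immunoglobulin and haemoglobin rows. That scaling moves the median of all rows to 0.109 on the log2 scale. The count was 14 by the authors' q. With the replicate number as a block it was 16 lower and 0 higher, but the numbers are not shown to pair samples, since deviations of same-numbered libraries correlated at 0.176 over all rows and 0.047 over Ighv rows. Relative to the Ighv sum, the 3 higher calls fell to 0 and the 0 lower calls became 0 to 2 without 1 library. The summed level stayed lower in vcS5 in every alternative run, with the ratio to wild type between 0.456 and 0.751.

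Several differences in share and evenness changed sign, and are given as vcS5 minus wild type in percentage points unless named. Without merged rows and shared loci the difference was -0.011 for Ighv1, -0.121 for Ighv7 and 0.029 for Ighv8, there only the row Ighv8-11. In that run it was -2.50 for the D-proximal rows, -0.733 for inverse Simpson, 0.537 for the leading row and 0.951 for the 5 leading rows. Without the leading row of each library it was -0.523 for inverse Simpson, 0.395 for the leading row and 0.333 for the 5 leading rows. With Ighv1-74, added after the data were seen, it was -0.866 for the D-proximal rows, -4.49 for inverse Simpson, 2.11 for the leading row and 2.63 for the 5 leading rows. Without 1 library in turn it ranged from -2.76 to 2.14 for the effective number, -0.058 to 0.043 for entropy, -0.013 to 0.0097 for Pielou evenness, -2.48 to 4.17 for inverse Simpson, -2.81 to 2.33 for the 5 and -3.24 to 3.29 for the 10 leading rows, and -0.610 to 5.15 for the D-proximal rows. For family shares it ranged from -1.20 to 2.103 for Ighv1, -0.590 to 2.03 for Ighv5, -1.33 to 0.830 for Ighv6, -0.500 to 0.831 for Ighv7, -2.26 to 1.06 for Ighv9 and -0.028 to 0.086 for Ighv15. The log2 change ranged from -0.57 to 0.18 for Ighv1-9, -1.03 to 0.19 for Ighv3-6 and -0.69 to 0.32 for Ighv1-55. The cause was not tested.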
